A study of Mus musculus with 9 samples.

Results

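The 10 genes described here code for brakes of the cell cycle and for a factor that acts on them: the CDK inhibitors *Cdkn1a*, *Cdkn1b*, *Cdkn2a*, *Cdkn2b*, *Cdkn2c* and *Cdkn2d*, the pocket proteins *Rb1*, *Rbl1* and *Rbl2*, and the homeobox gene *Meis1*. They were chosen by symbol, and all 10 were found among the 48820 genes of the deposited expression table. RNA-seq was done on 9 whole hearts of untreated wild-type C57BL/6J mice that were all labelled male, with 3 biological replicates each before birth (E18.5d), at postnatal day 1 (P1d) and at postnatal day 7 (P7d). The values are FPKM, that is, fragment numbers scaled by the length of the transcript and by the size of the library. The question was how these genes differ between the fetal heart and the heart of the newborn, in which division of cardiomyocytes slows down. The labels do not say whether hearts of a stage shared a litter, so the tests measure the spread between these hearts.

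CDK inhibitors hold back the kinases that drive a cell from G1 into S phase. Those of the Cip/Kip family, p21 (*Cdkn1a*), p27 (*Cdkn1b*) and p57 (*Cdkn1c*), bind cyclin-CDK2 complexes among others, while those of the INK4 family, p16 (*Cdkn2a*), p15 (*Cdkn2b*), p18 (*Cdkn2c*) and p19 (*Cdkn2d*), bind CDK4 and CDK6. Unphosphorylated pocket proteins, pRB (*Rb1*), p107 (*Rbl1*) and p130 (*Rbl2*), bind E2F factors and keep their target genes low, with p107 typical of cycling cells and p130 of resting cells. MEIS1 is known as a transcription factor that acts on CDK inhibitor genes in the postnatal cardiomyocyte and limits its division.

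The depth, read from the steps between low FPKM values, was 25.25 to 45.5 (in units of 1e6 fragments) per heart, and the 8 genes above 1 FPKM on average had 412 to 9630 estimated fragments in a heart. Summed FPKM of 5 cardiomyocyte markers was 10720 to 10870 at E18.5d, 14930 to 15910 at P1d and 15170 to 15800 at P7d, and none of these markers was at 0. *Myh6* carried most of the rise of this sum (mean 3220, 6737 and 8318 FPKM in the order of the stages), while *Tnnt2* was 4431, 4775 and 3056 FPKM and fell from E18.5d to P7d (log2 change -0.54, limma adjusted p = 0.000771). In 4 hearts (E18.5d replicates 1 and 3, P7d replicates 2 and 3) *Xist* was 58.03 to 97.03 FPKM and 4 Y-linked genes were at 0, which goes against the label male, while in the other 5 hearts, all P1d hearts among them, *Xist* did not exceed 0.11 FPKM. Transcripts of airway cells were present in 3 hearts, with *Scgb3a2* at 53.24 and 127.06 FPKM in E18.5d replicates 1 and 2 and at 179.21 FPKM in P1d replicate 1, against at most 1.0 FPKM in the other hearts. Results are given below without these hearts where a difference then no longer passes the test's threshold, that is, where it is no longer called. Leaving out the 3 hearts with airway transcripts leaves 1 fetal, 2 P1d and 3 P7d hearts, and the lone fetal heart is then assumed to vary like the hearts of the other stages. A call lost in that fit cannot be told apart from the effect of fewer hearts. Over the 6260 genes that differed between P1d and E18.5d, the median change in the called direction was 0.48 and 0.53 (log2) in P1d replicates 1 and 2 and 0.43 in P1d replicate 3.

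Between E18.5d and P1d most of the 10 genes moved, and not in 1 direction. *Cdkn1a*, *Cdkn1b* and *Rbl2* rose, while *Rbl1*, *Cdkn2d*, *Cdkn2c* and *Meis1* fell. Of the 8 genes that passed the filter of a mean of 1 FPKM, 3 were higher and 4 lower (limma on log2(FPKM + 1), Benjamini-Hochberg adjusted over 13618 genes, threshold 0.05). Across all genes tested 46.0% were called, 18.4% higher and 27.6% lower, so a change as such was common at this interval. The hearts of both stages did not overlap for 7 of the 8 genes, against 54.4% of all genes. In bulk hearts, a shift in the mix of cell types and a change in RNA per cell cannot be told apart.

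From P1d to P7d, *Rbl1* and *Cdkn2c* rose, and *Rbl2*, *Cdkn1b* and *Meis1* fell. These are 2 genes higher and 3 lower, against 15.5% and 28.6% of all genes (44.2% in either direction), and the hearts were apart for 5 of the 8 genes, against 53.6%. Over the whole interval from E18.5d to P7d, *Cdkn1a* was higher and *Cdkn2d*, *Rbl1* and *Meis1* were lower. That is 1 gene higher and 3 lower, against 12.5% and 36.9% of all genes (49.4% in either direction), with hearts apart for 6 of the 8 genes, against 62.5%. The 3 comparisons share hearts, and each gene's values for them are given side by side below.

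The log2 changes are on the log2(FPKM + 1) scale, which understates the change of low genes. The median change of all genes was -0.058 at P1d against E18.5d, -0.093 at P7d against P1d and -0.17 at P7d against E18.5d. Rescaling by the median of ratios moved these medians to 0.0097, 0.021 and 0.0092. The calls over all genes then went from 2505 higher and 3755 lower to 3216 and 3020 at P1d against E18.5d, from 2112 and 3901 to 3195 and 2469 at P7d against P1d, and from 1706 and 5025 to 3161 and 2534 at P7d against E18.5d. None of the genes called among the 10 changed direction under any scaling tried.

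**Figure D1:**
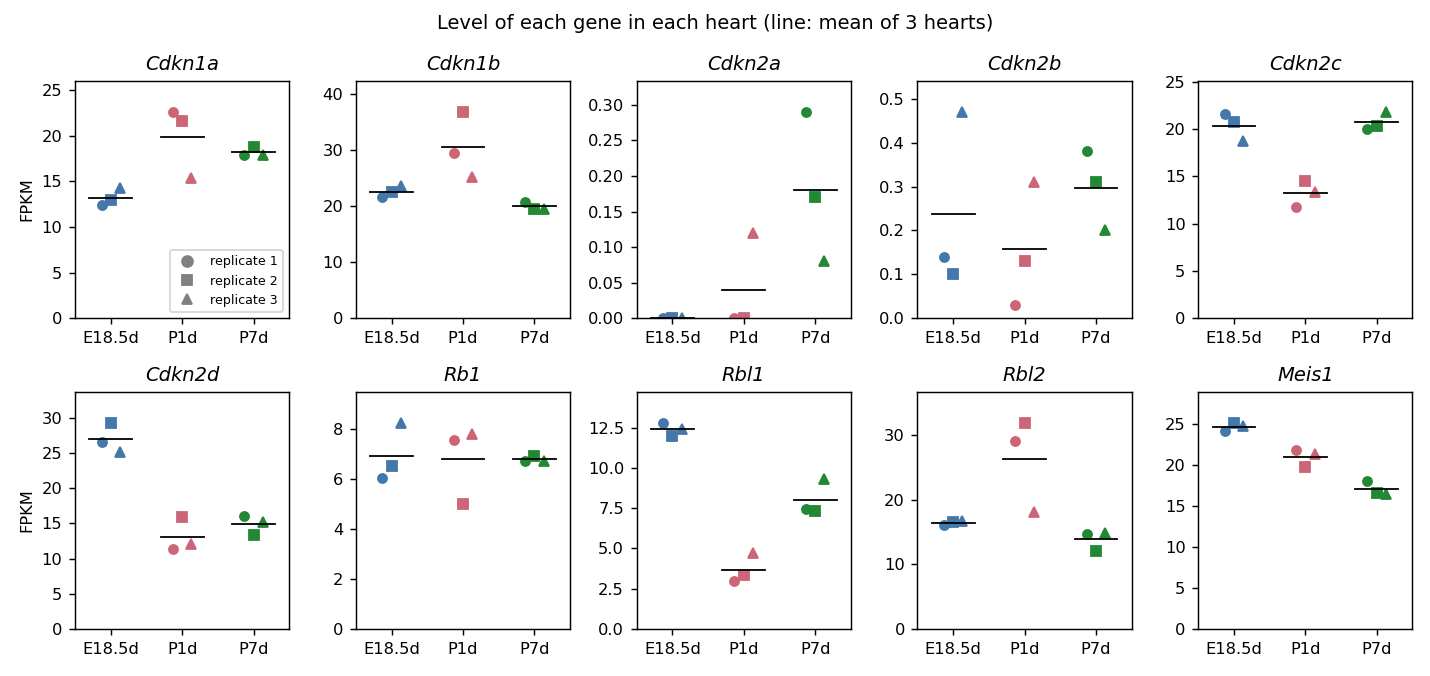
FPKM of each of the 10 genes (y axis, from 0) in each of the 9 hearts, by stage (x axis), with a point per heart, its shape giving the replicate, and a line at the mean of 3 hearts. *Cdkn1b* and *Rbl2* are highest at P1d, *Cdkn1a* is higher at both postnatal stages than at E18.5d, and *Rbl1* and *Cdkn2c* are lowest at P1d. *Meis1* steps down at both intervals, and P1d replicate 3 lies nearest to the other stages for *Cdkn1a*, *Cdkn1b*, *Rbl1* and *Rbl2*.

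*Cdkn1a* (ENSMUSG00000023067.13, GRCm38 chr17:29090976-29100727, plus strand) codes for p21, which p53 and many stress signals induce. It was 12.35, 12.97 and 14.21 FPKM in the 3 hearts at E18.5d, 22.58, 21.61 and 15.40 FPKM at P1d, and 17.85, 18.76 and 17.90 FPKM at P7d. Every postnatal heart was above every fetal heart, and P1d replicate 3 lay below the P7d hearts. The means were 13.2 ± 0.947, 19.9 ± 3.90 and 18.2 ± 0.512 FPKM (SD, n = 3) in the order of the stages.

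*Cdkn1a* was thus 1.51-fold higher at P1d than at E18.5d (log2 change 0.54, SE 0.12, limma adjusted p = 0.00624) and 1.38-fold higher at P7d (log2 change 0.44, SE 0.12, limma adjusted p = 0.0163). Between P1d and P7d the log2 difference was -0.10 with a 95% interval from -0.38 to 0.18 (limma adjusted p = 0.525), and without P1d replicate 3 it was -0.27 (adjusted p = 0.0169). The rise at P1d was not called after rescaling to an equal sum (0.38, adjusted p = 0.0502) or in the fit without airway hearts, with 1 fetal heart left (0.34, adjusted p = 0.244). The rise at P7d was not called in that fit of 1 fetal heart (0.33, adjusted p = 0.216), without E18.5d replicate 1 (0.39, adjusted p = 0.0555) or without P7d replicate 2 (0.42, adjusted p = 0.0532).

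To set these levels beside the sequence before the gene, the 250 bases before each RefSeq start (GRCm38.p6) were searched on both strands for the letters of 5 known motifs, in 12 windows of 9 of the 10 genes and in all 32851 windows of the table. A full p53 response element (both decamers without a spacer, at most 1 mismatch) was found in 0.0761% of all windows (25 windows), and 1 of them was the window of the first start of *Cdkn1a*, where it spans the bases 51 to 32 before the start. The stretch is shown because p21 is the best known target of p53, with the element in capitals (chr17:29090859-29090978, plus strand). The window of the second start of *Cdkn1a* (chr17:29093769) held none of the 5 motifs. A match of letters is a description and not a bound site.
Cdkn1a: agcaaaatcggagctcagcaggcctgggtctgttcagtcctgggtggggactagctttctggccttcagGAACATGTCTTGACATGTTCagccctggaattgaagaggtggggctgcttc
The transcript of p53 itself, *Trp53*, had means of 18.5, 11.4 and 16.8 FPKM in the order of the stages (log2 change -0.65, limma adjusted p = 0.000209 at P1d against E18.5d). Whether p53 acts on *Cdkn1a* in these hearts was not tested.

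*Cdkn1b* (ENSMUSG00000003031.14, chr6:134920401-134925513, plus strand) codes for p27, a brake of resting cells whose protein is mostly set by its breakdown. Its levels were 21.57, 22.46 and 23.66 FPKM at E18.5d, 29.56, 36.84 and 25.28 FPKM at P1d, and 20.78, 19.59 and 19.55 FPKM at P7d. All P1d hearts were above all others, and the P7d hearts lay just below the fetal ones. The means were 22.6 ± 1.05, 30.6 ± 5.84 and 19.97 ± 0.699 FPKM (SD, n = 3).

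The rise of *Cdkn1b* at P1d was 1.35-fold (log2 change 0.41, SE 0.11, limma adjusted p = 0.0163), and from P1d to P7d the mean fell by 34.6% (log2 change -0.57, limma adjusted p = 0.00322). P7d differed from E18.5d by -0.17 with a 95% interval from -0.42 to 0.088 (limma adjusted p = 0.247), although the hearts did not overlap, and a fit of these stages alone called it (adjusted p = 0.0390). The rise at P1d was not called after rescaling to an equal sum (0.24, adjusted p = 0.0939), with *Xist* as a covariate (0.38, adjusted p = 0.0790), without E18.5d replicate 1 (0.38, adjusted p = 0.0536) or without the airway hearts, with 1 fetal heart left (0.35, adjusted p = 0.266).

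Forkhead factors such as FOXO3 are known to induce *Cdkn1b*, and the window before its start holds the core letters TTAAACA on the minus strand, 17 to 11 bases before the start (searched as GTAAACA or TTAAACA, found in 6.25% of all windows). They are in capitals, as read on the gene's strand, in chr6:134920281-134920400.
Cdkn1b: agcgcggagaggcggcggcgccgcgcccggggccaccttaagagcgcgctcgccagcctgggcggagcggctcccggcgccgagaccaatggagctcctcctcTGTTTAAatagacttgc
*Foxo3* was 17.07, 17.36 and 18.05 FPKM at E18.5d, 31.62, 41.76 and 22.24 FPKM at P1d, and 17.19, 16.81 and 17.22 FPKM at P7d. It was highest in the same P1d heart, replicate 2, and lowest of the P1d hearts in replicate 3, as *Cdkn1b* was. P1d replicate 2 also had the largest summed FPKM over all genes (1794160, against 1427608 and 1508383 in P1d replicates 1 and 3). Whether FOXO3 acts on *Cdkn1b* in these hearts was not tested.

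**Figure D2:**
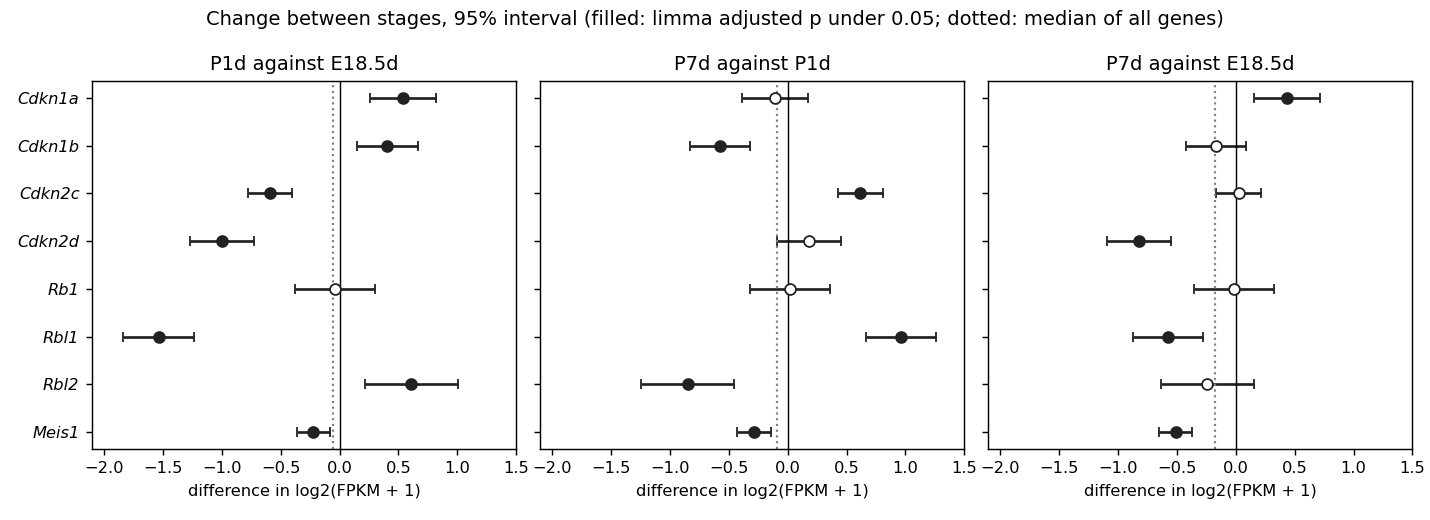
Difference in log2(FPKM + 1) between stages (x axis) for the 8 genes above the filter (y axis), with the 95% interval of the limma fit, for P1d against E18.5d, P7d against P1d and P7d against E18.5d. Points are filled where the adjusted p was under 0.05, the dotted line is the median of all genes, and *Rbl1* has the lowest value at P1d (-1.54) and the highest from P1d to P7d (0.96).

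Among the INK4 inhibitors only *Cdkn2c* and *Cdkn2d* passed the filter. *Cdkn2c* (ENSMUSG00000028551.14, chr4:109660876-109667189, minus strand), which codes for p18, was 21.55, 20.77 and 18.72 FPKM at E18.5d, 11.78, 14.48 and 13.31 FPKM at P1d, and 19.98, 20.35 and 21.80 FPKM at P7d. The P1d hearts were below all the others, and the P7d and fetal hearts overlapped. Means were 20.3 ± 1.46, 13.2 ± 1.35 and 20.7 ± 0.962 FPKM (SD, n = 3).

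The mean of *Cdkn2c* fell by 35.2% at P1d (log2 change -0.59, SE 0.084, limma adjusted p = 0.000465) and then rose 1.57-fold to P7d (log2 change 0.62, SE 0.084, limma adjusted p = 0.000435). P7d and E18.5d differed by 0.026 with a 95% interval from -0.16 to 0.22 (limma adjusted p = 0.822). The fall at P1d was not called without the airway hearts, where 1 fetal heart stood against 2 P1d hearts (-0.41, adjusted p = 0.0515).

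Only 1 motif match lay in the windows of *Cdkn2c*, the letters TGACAG that MEIS and PKNOX proteins of the TALE homeobox class recognise (in 15.9% of all windows), 120 to 115 bases before the second start. It is shown because MEIS1 is thought to act on inhibitor genes of this family, with these letters in capitals (chr4:109665433-109665532, minus strand).
Cdkn2c: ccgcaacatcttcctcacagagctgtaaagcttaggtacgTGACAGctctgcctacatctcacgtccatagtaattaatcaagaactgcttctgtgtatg
The same letters were found on the minus strand in the first window of *Cdkn2a*, 222 to 217 bases before the start, and in no other window of the 9 genes.

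*Cdkn2d* (ENSMUSG00000096472.1, chr9:21288410-21291407, minus strand), which codes for p19 of the INK4 family, was the highest of the 10 genes in the fetal heart. It was 26.61, 29.34 and 25.23 FPKM at E18.5d, 11.41, 15.92 and 12.04 FPKM at P1d, and 16.08, 13.33 and 15.28 FPKM at P7d. All fetal hearts were above all postnatal hearts, and the P1d and P7d hearts overlapped.

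From 27.1 ± 2.09 FPKM (SD, n = 3) at E18.5d, *Cdkn2d* fell by 51.5% to 13.1 ± 2.44 FPKM at P1d (log2 change -1.001, SE 0.12, limma adjusted p = 0.000177). At P7d it was 14.9 ± 1.41 FPKM, still below E18.5d (log2 change -0.82, limma adjusted p = 0.000502). Between P1d and P7d the difference was 0.18 with a 95% interval from -0.091 to 0.45 (limma adjusted p = 0.253), while without P1d replicate 2 it was 0.32 (adjusted p = 0.0261). None of the motifs was found in its window.

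*Cdkn2a* and *Cdkn2b* lie next to each other on chromosome 4 (89274471 to 89294653 and 89306299 to 89311039, both on the minus strand) and are known to rise in senescent cells. *Cdkn2a* makes both p16 and, from another reading frame, p19ARF, and FPKM per gene cannot separate these. *Cdkn2a* (ENSMUSG00000044303.6) was listed at 0 in all 3 hearts at E18.5d and in P1d replicates 1 and 2, at 0.12 FPKM in P1d replicate 3, and at 0.29, 0.17 and 0.08 FPKM at P7d. At the estimated depth these are 3 fragments in the P1d heart and 9, 6 and 3 fragments in the P7d hearts, and 3 fragments are worth 0.077 to 0.136 FPKM here. All P7d hearts were above all fetal hearts, and P7d replicate 3 was at the level of 3 fragments.

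An exact two-sided permutation test over the 3 stages gave p = 0.0714 for *Cdkn2a* (smallest possible p 0.00357), and P7d against E18.5d gave an exact p = 0.1, the smallest that 3 hearts against 3 allow. With no filter limma called P7d against E18.5d (log2 difference 0.23, adjusted p = 0.0365 over 27255 genes). *Cdkn2b* (ENSMUSG00000073802.4) was 0.14, 0.10 and 0.47 FPKM at E18.5d, 0.03, 0.13 and 0.31 FPKM at P1d, and 0.38, 0.31 and 0.20 FPKM at P7d, all stages overlapping (exact permutation p = 0.525 over the stages). Both genes were thus near the limit of detection in whole hearts, at 0 to 16 estimated fragments.

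Of the pocket proteins, *Rb1* (ENSMUSG00000022105.6, chr14:73183673-73325822, minus strand), the retinoblastoma gene, stood out by its even level. It was 6.03, 6.51 and 8.26 FPKM at E18.5d, 7.55, 5.02 and 7.80 FPKM at P1d, and 6.72, 6.93 and 6.73 FPKM at P7d. The stages overlapped throughout, and the spread was widest at P1d (6.79 ± 1.54 FPKM, SD, n = 3). Differences were -0.037 at P1d against E18.5d (95% interval -0.37 to 0.30), 0.021 at P7d against P1d (-0.32 to 0.36) and -0.016 at P7d against E18.5d (-0.35 to 0.32), with limma adjusted p = 0.862, 0.924 and 0.941. Exons of *Rb1* overlap those of *Rcbtb2* and *Lpar6* on the opposite strand by 488 and 408 bases, and *Rcbtb2* was at 20.64 to 25.44 FPKM. Whether strand was used in counting is not stated, so reads from these stretches may be shared.

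*Rbl1* (ENSMUSG00000027641.13, chr2:157145893-157204534, minus strand), which codes for p107, showed the largest change of the 8 genes tested at P1d against E18.5d. It was 12.80, 11.96 and 12.41 FPKM at E18.5d, 2.98, 3.34 and 4.69 FPKM at P1d, and 7.45, 7.34 and 9.28 FPKM at P7d. The 3 stages did not overlap at any point, with P7d between the others.

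The mean of *Rbl1* fell by 70.4%, from 12.4 ± 0.420 FPKM (SD, n = 3) to 3.67 ± 0.901 FPKM at P1d (log2 change -1.54, SE 0.13, limma adjusted p = 2.81e-05). It then rose 2.19-fold to 8.02 ± 1.09 FPKM at P7d (log2 change 0.96, SE 0.13, limma adjusted p = 0.000472), which was below E18.5d (log2 change -0.58, limma adjusted p = 0.00599). The last of these had the same size but was not called without the airway hearts, with 1 fetal heart left (-0.58, adjusted p = 0.0840). The fall at P1d was called under every alternative. These included the fit of the 5 hearts with *Xist* at or below 1 FPKM, in which most calls over all genes were lost with fewer hearts. No other change of the 10 genes was called there.

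*Rbl1* is itself an E2F target, and the window before its start holds the E2F letters TTTCGCGC 18 to 11 bases before the start. The search was for TTT, a pair of bases that are each C or G, then CGC, and 1.86% of all windows hold a match. Of the 9 genes with a window, *Cdkn2a* also had one (99 to 92 bases before its first start). The 120 bases before *Rbl1*, with the match in capitals, are chr2:157204535-157204654, minus strand.
Rbl1: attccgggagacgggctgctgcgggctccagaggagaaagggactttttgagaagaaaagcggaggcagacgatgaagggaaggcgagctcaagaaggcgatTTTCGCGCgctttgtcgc

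*Rbl2* (ENSMUSG00000031666.15, chr8:91070057-91123844, plus strand), which codes for p130, the pocket protein of the DREAM complex in resting cells, moved opposite to *Rbl1*. It was 16.19, 16.54 and 16.76 FPKM at E18.5d, 29.16, 31.98 and 18.09 FPKM at P1d, and 14.68, 12.13 and 14.80 FPKM at P7d. P1d replicates 1 and 2 were far above all other hearts, P1d replicate 3 only just, and the P7d hearts were lowest. The means were 16.5 ± 0.287, 26.4 ± 7.34 and 13.9 ± 1.51 FPKM (SD, n = 3).

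The rise of *Rbl2* at P1d was 1.60-fold (log2 change 0.61, SE 0.18, limma adjusted p = 0.0186), and by P7d the mean fell by 47.5% (log2 change -0.85, SE 0.18, limma adjusted p = 0.00406). Against E18.5d the P7d difference was -0.24 with a 95% interval from -0.63 to 0.16 (limma adjusted p = 0.283), and it was called in a fit of these stages alone (adjusted p = 0.0389) and without P1d replicate 3 (adjusted p = 0.0364). The rise at P1d lost its call without E18.5d replicate 1 (0.60, adjusted p = 0.0510), without P1d replicate 1 (0.52, adjusted p = 0.0649), without P1d replicate 2 (0.46, adjusted p = 0.0613), after rescaling to an equal sum (0.44, adjusted p = 0.0618), with *Xist* as a covariate (0.57, adjusted p = 0.0871) and without the airway hearts, with 1 fetal heart left (0.50, adjusted p = 0.294). In that fit, with 2 P1d hearts, the fall from P1d to P7d was -0.76 (adjusted p = 0.0547).

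Exons of *Rbl2* overlap *Aktip* on the opposite strand by 693 bases, and *Aktip* was at 13.08 to 16.41 FPKM with no peak at P1d. The window before *Rbl2* held the letters of the CHR, the element to which the MuvB part of DREAM binds (TTTGAA or TTCGAA, in 17.1% of all windows), on the minus strand 201 to 196 bases before the start. It is shown as read on the gene's strand, in capitals, since p130 works in that complex (chr8:91069807-91069926).
Rbl2: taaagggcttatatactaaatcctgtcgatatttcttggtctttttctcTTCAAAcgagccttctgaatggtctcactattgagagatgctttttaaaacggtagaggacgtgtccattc
The only other window with CHR letters was that of *Cdkn2b*, 161 to 156 bases before its start.

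*Meis1* (ENSMUSG00000020160.18, chr11:18879817-19018985, minus strand) was the steadiest of the genes that changed. It was 24.07, 25.11 and 24.70 FPKM at E18.5d, 21.83, 19.72 and 21.31 FPKM at P1d, and 18.05, 16.53 and 16.46 FPKM at P7d. No heart of a stage overlapped with another stage, and the level stepped down at each. The means were 24.6 ± 0.524, 20.95 ± 1.10 and 17.0 ± 0.898 FPKM (SD, n = 3).

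From E18.5d to P7d the mean of *Meis1* fell by 30.9% (log2 change -0.51, SE 0.063, limma adjusted p = 0.000175), which is -0.34 relative to the median of all genes. The steps were -0.22 to P1d (limma adjusted p = 0.0158) and -0.29 from P1d to P7d (limma adjusted p = 0.00536). Neither step was called after rescaling by the median of ratios (-0.15, adjusted p = 0.0694, and -0.16, adjusted p = 0.0596), the first was not called without E18.5d replicate 2 (-0.21, adjusted p = 0.0564), and the second was not called after rescaling to an equal sum (-0.16, adjusted p = 0.340) or with *Xist* as a covariate (-0.23, adjusted p = 0.0539). Without the airway hearts, with 1 fetal and 2 P1d hearts left, the steps were -0.26 (adjusted p = 0.148) and -0.26 (adjusted p = 0.0605), while the change over the whole interval stayed called. Exons of *Gm37818*, at 0.76 to 1.57 FPKM, overlap *Meis1* on the same strand by 1029 bases. No motif was found in the window before *Meis1*.

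Since the 4 hearts with *Xist* were fetal or at P7d and none was at P1d, the changes were also read within the 5 hearts with low *Xist* (1 fetal heart, the 3 P1d hearts and 1 P7d heart). At P1d against E18.5d they were 0.56 for *Cdkn1a*, 0.41 for *Cdkn1b*, 0.61 for *Rbl2*, -0.62 for *Cdkn2c*, -1.12 for *Cdkn2d*, -0.25 for *Meis1* and -1.49 for *Rbl1*, close in size to those over all hearts. Only that of *Rbl1* was called. At P7d against P1d they were 0.87 for *Rbl1*, 0.57 for *Cdkn2c*, -0.77 for *Rbl2*, -0.52 for *Cdkn1b* and -0.20 for *Meis1*, none of them called. At P7d against E18.5d, a single heart on each side, they were 0.43 for *Cdkn1a*, -0.83 for *Cdkn2d*, -0.62 for *Rbl1* and -0.45 for *Meis1*, none of them called. Most calls over all genes were lost in this fit as well. A call lost there cannot be told apart from the effect of fewer hearts.

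Ordered by mean FPKM, the fetal heart had *Cdkn2d* (27.1), *Meis1* (24.6), *Cdkn1b* (22.6), *Cdkn2c* (20.3), *Rbl2* (16.5), *Cdkn1a* (13.2), *Rbl1* (12.4) and *Rb1* (6.93), and of these neighbours only *Cdkn1a* and *Rbl1* overlapped between hearts. At P1d the order was *Cdkn1b* (30.6), *Rbl2* (26.4), *Meis1* (20.95), *Cdkn1a* (19.9), *Cdkn2c* (13.2), *Cdkn2d* (13.1), *Rb1* (6.79) and *Rbl1* (3.67), with overlap between each neighbouring pair of the first 4 and between *Cdkn2c* and *Cdkn2d*. At P7d it was *Cdkn2c* (20.7), *Cdkn1b* (19.97), *Cdkn1a* (18.2), *Meis1* (17.0), *Cdkn2d* (14.9), *Rbl2* (13.9), *Rbl1* (8.02) and *Rb1* (6.79). There the hearts overlapped between *Cdkn2c* and *Cdkn1b*, between *Cdkn1a* and *Meis1* and between *Cdkn2d* and *Rbl2*.

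The sum of the INK4 transcripts was 47.6 ± 2.95, 26.5 ± 3.71 and 36.1 ± 1.70 FPKM (SD, n = 3) in the order of the stages. That of *Cdkn1a* and *Cdkn1b* moved the other way, at 35.7 ± 1.99, 50.4 ± 9.01 and 38.1 ± 0.617 FPKM. The third Cip/Kip gene, *Cdkn1c*, an imprinted gene typical of embryonic tissue, was higher than any of the 10 at E18.5d (73.87, 74.98 and 69.39 FPKM), was 55.22, 50.41 and 46.81 FPKM at P1d, and was 17.81, 17.32 and 18.55 FPKM at P7d. It fell at P1d (log2 change -0.51, limma adjusted p = 0.000332) and further to P7d (log2 change -1.45, limma adjusted p = 2.95e-06).

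With *Cdkn1c*, the 7 inhibitor genes summed to 156 ± 4.47 FPKM before birth, 128 ± 13.3 FPKM at P1d and, lowest, 92.1 ± 1.99 FPKM at P7d. The 6 inhibitors among the 10 genes summed to 83.4 ± 1.95, 76.9 ± 11.3 and 74.2 ± 1.51 FPKM, so most of the decline of the sum was that of *Cdkn1c*. Its share of the 7 genes went from 46.6% at E18.5d over 39.9% at P1d to 19.4% at P7d, while that of *Cdkn1a* was 8.45%, 15.5% and 19.7%. At P7d *Cdkn2c* held 22.5%, *Cdkn1b* 21.7% and *Cdkn2d* 16.2%, so 5 genes then held 16.2% to 22.5% each.

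**Figure D3:**
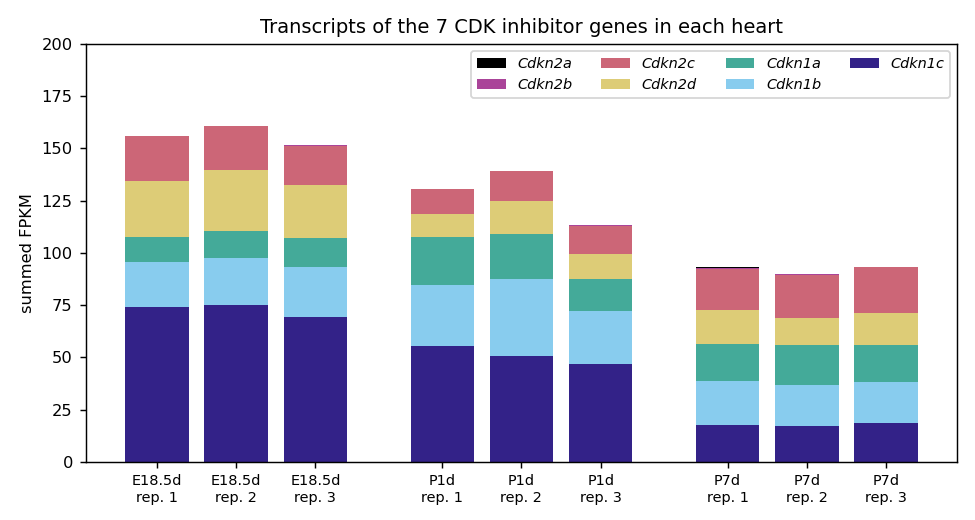
Summed FPKM (y axis, from 0) of the 7 CDK inhibitor genes in each of the 9 hearts (x axis), stacked by gene. The dark part at the base, *Cdkn1c*, goes from 69.39 to 74.98 FPKM at E18.5d to 17.32 to 18.55 FPKM at P7d, and *Cdkn2a* and *Cdkn2b* are too low to see as parts.

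Ratios within a heart do not depend on the scaling of its column, and they are given as a description. *Rbl2* to *Rbl1* was 1.26, 1.38 and 1.35 at E18.5d, 9.79, 9.57 and 3.86 at P1d, and 1.97, 1.65 and 1.59 at P7d. Every P1d heart was above every other heart, replicate 3 by the least. Of the summed pocket protein transcripts, *Rbl1* held 34.6%, 10.4% and 27.9% in the order of the stages, *Rbl2* held 46.1%, 70.6% and 48.3%, and *Rb1* 19.3%, 19.0% and 23.8%.

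The ratio of *Cdkn1a* to *Cdkn1b* was 0.573 to 0.601 at E18.5d, 0.587 to 0.764 at P1d and 0.859 to 0.958 at P7d, so the P7d hearts were apart from all others. *Cdkn1a* and *Cdkn1b* together against *Cdk2*, a kinase that they bind, were 1.03 to 1.29 at E18.5d, 1.95 to 3.41 at P1d and 1.88 to 2.09 at P7d. All postnatal hearts were above all fetal hearts for this pair. *Cdk2* itself fell against E18.5d, by -0.77 at P1d (limma adjusted p = 0.000303) and -0.65 at P7d (limma adjusted p = 0.000737). The pair leaves out *Cdkn1c*. With it, mean Cip/Kip FPKM fell from 108.49 at E18.5d to 56.04 at P7d, in proportion more than *Cdk2* (31.21 to 19.55 FPKM). The higher ratio at P7d thus holds only without *Cdkn1c*. *Cdkn2c* and *Cdkn2d* together against their targets *Cdk4* and *Cdk6* were 0.326 to 0.359 at E18.5d, 0.233 to 0.340 at P1d and 0.332 to 0.366 at P7d, with overlap between the stages. P1d replicates 1 and 3, at 0.233 and 0.239, were below every heart of the other stages, and P1d replicate 2, at 0.340, was not. *Cdk4* itself also fell at P1d, from 117 to 78.8 FPKM (log2 change -0.57, limma adjusted p = 0.000123).

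**Figure D4:**
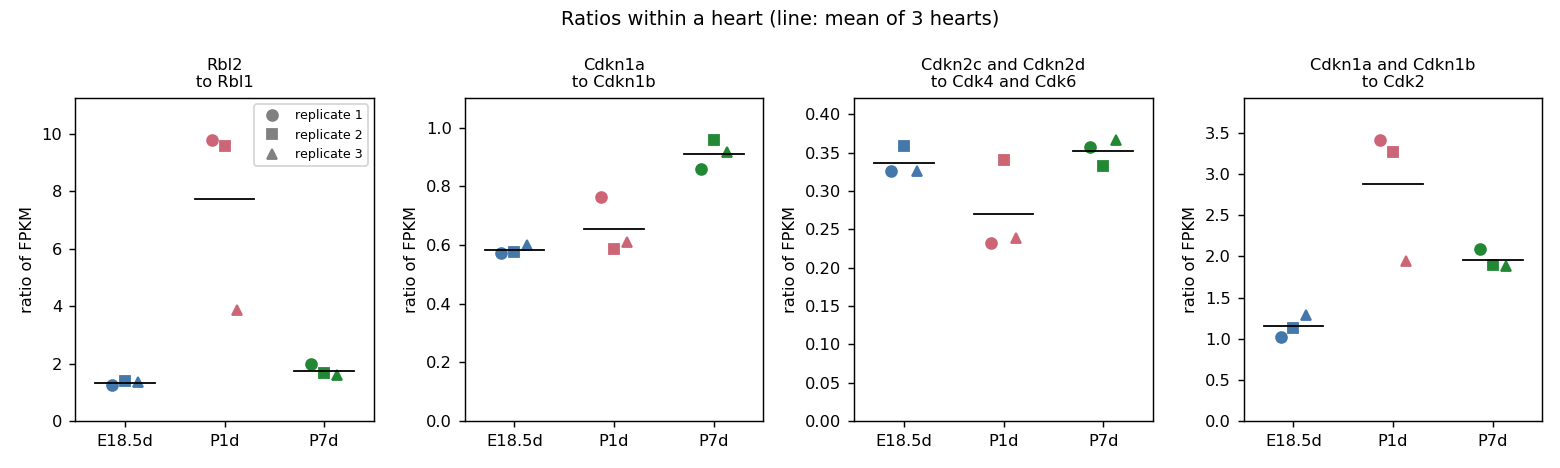
Ratio of FPKM within each heart (y axis, from 0) by stage (x axis) for *Rbl2* to *Rbl1*, *Cdkn1a* to *Cdkn1b*, the INK4 pair to *Cdk4* and *Cdk6*, and the Cip/Kip pair to *Cdk2*, with a point per heart and a line at the mean of 3 hearts. *Rbl2* to *Rbl1* is 3.86 to 9.79 at P1d and at most 1.97 at the other stages.

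Of 77 other genes of the pathway, 75 passed the filter, and at P1d against E18.5d 3 of them were higher and 51 lower (4.0% and 68.0%, against 18.4% and 27.6% of all genes), with a median change of -0.74 against -0.058 for all genes. From P1d to P7d 35 were higher and 15 lower (median 0.29), or 42 and 10 after rescaling by the median of ratios. At P7d against E18.5d 1 was higher and 52 lower (1.33% and 69.3%, against 12.5% and 36.9% of all genes), with a median of -0.56. After that rescaling they were 6 and 40. Summed FPKM of 4 proliferation markers was 141 to 144 at E18.5d, 25.9 to 35.8 at P1d and 61.9 to 73.9 at P7d, in the order in which *Rbl1* moved. How far the change of *Rbl1* followed the share of dividing cells was not tested.

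All 19 S phase genes that E2F drives were lower at P1d (median -1.58), against 27.6% of all genes. They were led by *Cdc6* (-1.98, adjusted p = 8.58e-05), which loads the replicative helicase, *Rrm2* (-1.97, adjusted p = 2.13e-05), which makes deoxynucleotides, and *Mcm2* (-1.88, adjusted p = 6.94e-05), part of that helicase. From P1d to P7d 16 of the 19 rose (84.2%, against 15.5% of all genes), with a median of 0.76. At P7d 16 were still lower than at E18.5d (84.2%, against 36.9% of all genes), with a median of -0.67. The lower ones were led by *Gins1* (-1.17), *Chek1* (-1.12) and *Rrm1* (-0.94). Beside these, *Rbl1* was at -1.54, 0.96 and -0.58 in the 3 comparisons.

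All 10 later cyclins, kinases and CDC25 phosphatases were lower at P1d, against 27.6% of all genes. They were led by *Ccne2* (-2.77, adjusted p = 3.78e-06), *Ccna2* (-1.92) and *Cdk1* (-1.90). At P7d all 10 were still lower than at E18.5d, against 36.9% of all genes, with *Ccne2* (-1.40), *Ccnb1* (-1.26) and *Ccna2* (-1.20) in front. Of the 5 D-type cyclins and their kinases, 4 were lower at P1d (80.0%, against 27.6% of all genes). They were *Ccnd1* (-0.89), *Ccnd2* (-0.67), *Cdk4* (-0.57) and *Ccnd3* (-0.39). *Cdk6* differed by -0.26 (adjusted p = 0.154). At P7d *Ccnd3* (-0.96) and *Cdk4* (-0.68) were lower than at E18.5d, while *Ccnd1* (-0.016), *Ccnd2* (0.17) and *Cdk6* (0.27) were not called.

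Of the 10 E2F and DP genes, 7 were lower at P1d (70.0%, against 27.6% of all genes), led by *E2f8* (-1.92), *E2f1* (-1.78) and *E2f7* (-1.33). The only one that was higher, *Tfdp2*, a partner that lets E2F bind DNA, was 16.95, 15.83 and 17.82 FPKM at E18.5d, 32.26, 39.12 and 21.29 FPKM at P1d and 15.07, 14.10 and 15.21 FPKM at P7d (0.80 at P1d against E18.5d, limma adjusted p = 0.00478). At P7d 6 were lower than at E18.5d, with *E2f8* (-1.18), *E2f1* (-0.66) and *E2f7* (-0.61) in front. The MuvB core works with p130 in resting and with B-MYB and FOXM1 in cycling cells. Of 7 genes of this core and its activators, 4 were lower at P1d (57.1%, against 27.6% of all genes). They were *Foxm1* (-1.63), *Mybl2* (-1.42), *Lin9* (-0.80) and *Lin54* (-0.66). At P7d against E18.5d 5 were lower (71.4%, against 36.9% of all genes), with *Foxm1* (-0.85), *Lin54* (-0.61) and *Lin9* (-0.51) in front.

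Of the 5 genes of the SCF-SKP2 ligase, which marks p27 for breakdown, *Skp2* (-1.56, adjusted p = 8.66e-06) and *Cks1b* (-1.32, adjusted p = 5.18e-06) were lower at P1d, when the transcript of *Cdkn1b* was highest. That is 40.0% of the list, against 27.6% of all genes. By P7d all 5 were below their fetal level, against 36.9% of all genes. They were led by *Cks1b* (-1.11), *Skp2* (-0.83) and *Rbx1* (-0.45), with *Cul1* at -0.36 and *Skp1a* at -0.27. At P1d against E18.5d *Rbx1* (-0.13), *Cul1* (-0.018) and *Skp1a* (0.099) were not called. The ligase acts on p27 protein, which was not analysed here, and a link to the transcript of *Cdkn1b* was not tested. Among 11 regulators of the inhibitor genes, 2 were higher and 3 lower at P1d (18.2% and 27.3%, against 18.4% and 27.6% of all genes). Higher were *Foxo3* (0.79, adjusted p = 0.00500) and *Klf4* (0.71, adjusted p = 0.000323), both known to induce Cip/Kip genes. *Ezh2* (-1.16), which represses the *Cdkn2a* locus, *Trp53* (-0.65) and *Bmi1* (-0.32) were lower. The other 6, *Foxo1* (-0.084) and *Foxo4* (0.24) among them, were not called. At P7d against E18.5d *Klf4* (0.72) was higher and *Myc* (-1.16) and *Ezh2* (-0.80) led the 3 lower ones. That is 9.09% and 27.3%, against 12.5% and 36.9% of all genes.

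*Meis1* has relatives and partners among the TALE homeobox genes, of which 7 of 9 passed the filter, while *Pbx4* was at 0.20 to 1.19 FPKM and *Hoxb13*, a known partner of MEIS1 in the postnatal heart, was listed at 0 in every heart. Only *Pknox1* was lower at P1d (-0.38, adjusted p = 0.00161), or 14.3% of the 7 genes against 27.6% of all genes. At P7d against E18.5d 4 were lower (57.1%, against 36.9% of all genes), and the median of the 7 genes was -0.26. They were led by *Meis2* (-0.52), *Pbx3* (-0.45) and *Pbx2* (-0.29), beside -0.51 for *Meis1*.

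**Figure D5:**
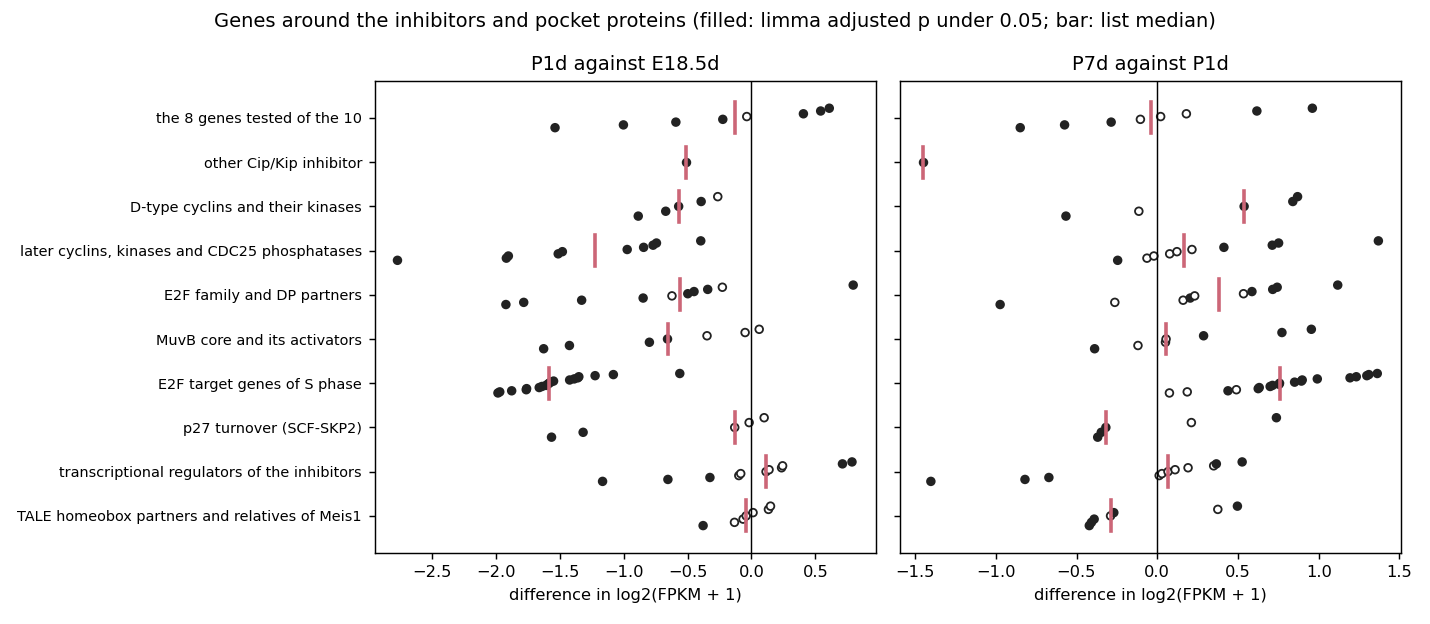
Difference in log2(FPKM + 1) (x axis) of the 8 genes tested and of the genes of 9 pathway lists (y axis) at P1d against E18.5d and at P7d against P1d, with a point per gene, filled where the limma adjusted p was under 0.05, and a bar at the median of a list. The 19 E2F target genes all lie below 0 at P1d (median -1.58) and above 0 from P1d to P7d (median 0.76), while the 8 genes tested spread to both sides.

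Markers of other cells also moved between the stages. Summed FPKM of 3 neutrophil markers was 5.65 to 10.7 at E18.5d, 40.7 to 65.3 at P1d and 12.6 to 17.3 at P7d, and all 3 of these genes were higher in every P1d heart than in any other heart. Of 3 brown fat markers, *Cidea* was 5.56 to 7.77 FPKM at E18.5d, 21.63 to 22.96 FPKM at P1d and 25.09 to 29.40 FPKM at P7d. *Ucp1* was at 0 in the fetal hearts and in P1d replicate 2, at 0.05 and 1.31 FPKM in P1d replicates 1 and 3 and at 5.77 to 7.26 FPKM at P7d, and *Elovl3* was at 0 in every heart but P1d replicate 3 (0.06 FPKM). The neutrophil markers were highest at P1d, as *Cdkn1b* and *Rbl2* were, and *Cdkn1a* was higher there than at E18.5d. The part of these cells in the results was not tested. Sums of 5 endothelial genes (298 to 335, 353 to 386 and 417 to 432 FPKM), of 5 fibroblast genes (990 to 1001, 756 to 961 and 1061 to 1132 FPKM), of 4 macrophage genes (13.8 to 17.6, 18.3 to 24.2 and 20.9 to 22.7 FPKM) and of 3 epicardial genes (38.3 to 46.9, 37.1 to 51.7 and 20.3 to 24.5 FPKM) differed less between stages than those of neutrophils. Those of 4 smooth muscle and pericyte genes (687 to 836, 677 to 796 and 654 to 761 FPKM) and of 4 erythroid genes (1877 to 5202, 3244 to 6239 and 1912 to 2457 FPKM) overlapped between some of the stages. The sum of the smooth muscle and pericyte genes is mostly *Acta2* and hides changes in both directions. At P7d against E18.5d *Rgs5* (log2 change 1.56, limma adjusted p = 2.84e-05) and *Pdgfrb* (0.75, adjusted p = 0.000247) were higher. *Acta2* was lower (-0.35, adjusted p = 0.0275), and *Myh11* was not called (-0.14).

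For each of the 8 genes, the genes nearest in pattern were those with the smallest root mean square difference of centred log2 values over the 9 hearts, among 12354 other genes with a symbol and a mean of at least 1 FPKM. *Rbl1* was nearest to *Lmnb2* (0.065), *Pole2* (0.070) and *Dnmt1* (0.071), against 0.65 for the spread of *Rbl1* itself. For *Rbl2* these were *Tfdp2* (0.10), *Corin* (0.11) and *Mylip* (0.11), against its own 0.42. *Meis1* was nearest to *Naca* (0.036), *Hsp90ab1* (0.038) and *Naa20* (0.043), against its own 0.21.

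The nearest to *Cdkn1a* (own spread 0.28) were *Prss36* (0.077), *Exoc7* (0.095) and *Usp54* (0.097), and to *Cdkn1b* (0.27) *Otulin* (0.068), *Washc1* (0.068) and *Atg101* (0.069). For *Cdkn2c* (0.30) they were *Phf19* (0.069) and *Kctd11* (0.075), and for *Cdkn2d* (0.46) *Clec2d* (0.084), *Aplp1* (0.11) and *Tacc3* (0.12). *Rb1* (0.17) had *Vangl2* (0.069), *Arhgef26* (0.099) and *Cdc73* (0.10). All points share the same 9 libraries, and a like pattern is a description only.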

How the data were processed

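RNA-seq of 9 mouse hearts was analysed, 3 each at E18.5d, P1d and P7d, grouped by stage as their labels give it. The authors deposited FPKM values with 2 decimals for 48820 genes in 1 table, in which every column belonged to a heart. The kit was NEBNext Ultra RNA. The submitters' processing notes name STAR and GRCm38 (mm10). The counting tool, its strand setting and the annotation are not given in the sources used here. Positions and overlaps were taken from GENCODE M21 of GRCm38, and promoter windows from RefSeq.

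Values were transformed to log2(FPKM + 1). Genes whose mean over the hearts reached 1 FPKM, 13618 in number, were tested with limma 3.58.1 (R 4.3.3, eBayes with trend, 3 stages in 1 fit, no covariates), with Benjamini-Hochberg adjustment over all of them and a threshold of 0.05. *Cdkn2a* and *Cdkn2b*, below that filter, were tested with exact two-sided permutation tests in Python 3.11.15 (scipy 1.17.1, numpy 2.4.6, pandas 2.3.3). Figures used matplotlib 3.10.9. The depth was estimated from the steps between low FPKM values, of which 88.15% to 91.45% were whole fragments within 0.2, and it covers counting only. The scripts were tested on simulated data.

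The genes and the pathway and marker lists were chosen with earlier results of these data known. Named were all 10 genes, the 3 largest called changes of each pathway list at P1d and at P7d against E18.5d with every gene of lists of 5 or fewer, and the 3 genes nearest in pattern to each gene, of which 1 is not reported here. *Tfdp2*, *Trp53*, *Lin54*, *Bmi1*, *Foxo1* and *Foxo4* at P1d and overlapping genes were named after their values were seen. *Hbb-bs*, an erythroid marker, and a promoter window of *Rb1* were not found in the tables. Knockout hearts, proteins and metabolites were not analysed here.

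As alternatives, the pseudocount was set to 0.1, the filter was dropped or raised to 5 FPKM, and each column was scaled to the same sum, by quantile normalization or by the median of ratios. The fit was also run without the trend, on just the pair of stages compared, with the replicate number as a block, with *Xist* above 1 FPKM as a covariate, on only the hearts at or below that level, and without each heart in turn, and a minimum log2 change of 1 was set. Rescaling to protein-coding nuclear genes and leaving out hearts with *Scgb3a2* above 10 FPKM were added after seeing the data.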

Additional observations from a re-analysis of the deposited data

How the results depend on the processing

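Every call of the 10 genes kept its direction under the alternatives run, and the settings that ended a call are given with each gene above. Only differences that were not called changed sign. For *Rb1* at P1d against E18.5d these were 0.032 (median of ratios), 0.060 (quantile), 0.0045 (*Xist* covariate), 0.032 (hearts with *Xist* at or below 1 FPKM), 0.080 without E18.5d replicate 3 and 0.14 without P1d replicate 2 (range without 1 heart -0.13 to 0.14). At P7d against P1d *Rb1* was -0.020 (*Xist* covariate) and -0.15 without P1d replicate 2 (range -0.15 to 0.12), and *Cdkn1a* was 0.020 (equal sum), 0.023 (median of ratios) and 0.042 (protein-coding rescaling). At P7d against E18.5d *Rb1* was 0.17 (median of ratios), 0.14 (quantile), 0.040 (low *Xist* hearts), 0.13 (protein-coding rescaling) and -0.098 to 0.10 without 1 heart, *Cdkn2c* was -0.016 (equal sum), -0.053 (low *Xist* hearts) and -0.030 to 0.066 without 1 heart, with -0.010 without P7d replicate 3, and *Cdkn1b* was 0.035 (median of ratios).

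Counts moved as follows, with 3 higher and 4 lower of the 8 genes at P1d against E18.5d, 2 and 3 at P7d against P1d, and 1 and 3 at P7d against E18.5d to start from. At P1d against E18.5d the number higher was 0 after rescaling to an equal sum, 1 with the *Xist* covariate, and 1 to 3 without 1 heart. Over all genes that number went from 2505 to 1173 after rescaling to an equal sum, to 1607 with the covariate, and to 1988 to 2646 without 1 heart. Requiring a log2 change of at least 1 left 0 higher and 2 lower at P1d against E18.5d and 0 and 0 in both other comparisons, and pathway genes were then 0 higher and 31 lower, 7 and 2, and 0 and 12. In the hearts with *Xist* at or below 1 FPKM, where 1 heart stands for E18.5d and 1 for P7d and is assumed to vary like the P1d hearts, the counts were 0 and 1, 0 and 0, and 0 and 0, and pathway genes 0 and 26, 0 and 1, and 0 and 2. Without the airway hearts, which leaves 1 heart at E18.5d and 2 at P1d under the same assumption, they were 0 higher and 2 lower at P1d against E18.5d, 1 lower at P7d against P1d and 0 higher at P7d against E18.5d, with 1 pathway gene higher at P1d against E18.5d and 34 lower at P7d against E18.5d. At P7d against E18.5d no filter gave 2 higher (*Cdkn2a*, the 1 gene below the filter called by limma, in addition), only the stages compared gave 5 lower, and leaving out 1 heart gave 0 to 1 higher. Pathway genes higher there were 6 (median of ratios), 6 (quantile), 4 (only the stages compared), 4 (protein-coding rescaling) and 1 to 4 without 1 heart, and those lower at P7d against P1d were 6 after rescaling to an equal sum. Over all genes the numbers higher at P7d against E18.5d were 3161, 2889, 1906, 2755 and 1410 to 1842 in these settings, from 1706. The number lower at P7d against P1d went from 3901 to 1727 after rescaling to an equal sum. The causes were not tested.

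The labels number the replicates but do not say that a number marks a litter or day, and deviations of same-numbered hearts correlated at -0.055 to 0.11, so the hearts were not treated as paired. With the replicate number as a block the counts of the 8 genes were 3 and 4, 2 and 3, and 1 and 3, and those of all genes 2487 and 3686, 2040 and 3817, and 1706 and 4961. Depth limits chiefly *Cdkn2a* and *Cdkn2b*, and their exact p over the stages was 0.0714 to 0.121 and 0.261 to 0.825 without 1 heart.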
